A study of Mus musculus with 19 samples.

Results

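The 7 genes described here are 2 members of the steroid reductase family, Srd5a1 and Srd5a3, and 5 steroid hormone receptor genes of the mouse vomeronasal organ (VNO), Esr1, Esr2, Pgr, Pgrmc1 and Nr3c1. They were taken from 35596 genes. Srd5a1 was chosen because it was higher in the Smad4 conditional knockouts (cKO) of both mouse lines, and the other genes were chosen by name. Whole VNOs were collected from mice labelled female at postnatal day 21 (P21), and polyA+ RNA was sequenced. The AP-2εCre line expresses Cre from the AP-2ε locus, which is switched on in vomeronasal sensory neurons (VSNs) of the basal type while they are still immature. In the OMPCre line, Cre replaces the coding sequence of Omp and is active in mature apical and basal VSNs. Each line had 3 groups of 3 libraries, which makes 6 groups and 18 libraries. The cKO carried 1 Cre allele with both Smad4 alleles floxed (AP-2εCre+/- with Smad4 flox/flox, and likewise OMPCre+/-), the heterozygous controls carried the Cre allele alone (AP-2εCre+/- or OMPCre+/-), and the third group is labelled wild type. The study names the controls of this dataset Smad4 flox/flox, and in another passage wild type, so the name flox/flox used here follows the study and not the labels. Because Cre acts in VSNs and the RNA comes from the whole organ, glands, vessels, supporting cells and stroma are part of every value, and fewer cells of a type cannot be told apart from less RNA per cell.

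Steroid 5α-reductases reduce the double bond in the A ring of testosterone, progesterone and related steroids. Srd5a1 encodes the type 1 enzyme, which yields dihydrotestosterone and dihydroprogesterone, and is known from brain and liver. Srd5a3 belongs to the same family by sequence, but its known role is to reduce polyprenol to dolichol, the lipid on which N-linked glycans are assembled. Esr1 and Esr2 encode the estrogen receptors, Pgr the nuclear progesterone receptor and Nr3c1 the glucocorticoid receptor, which are transcription factors switched by their ligand. Pgrmc1 encodes a heme-binding membrane protein that partners cytochrome P450 enzymes and has been linked to progesterone responses. Sex steroids are known to modulate how VSNs of female mice respond to pheromones.

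All 7 genes were detected in every library, over a range of levels that spanned from Pgrmc1 to Esr2. Levels of different genes are compared as TPM, the deposited unit of abundance that corrects for transcript length and depth, summed over the transcripts of a gene. Over the 12 control libraries, the mean level was 88.9 TPM for Pgrmc1, 14 TPM for Nr3c1, 12 TPM for Srd5a3, 6.38 TPM for Srd5a1, 1.52 TPM for Esr1, 0.145 TPM for Pgr and 0.0994 TPM for Esr2. In counts, Pgrmc1 had 5947 to 21928 estimated reads per library, whereas Pgr had 26 to 180 and Esr2 had 3 to 46. The glucocorticoid receptor was thus the most abundant of the nuclear receptors listed here per unit of length, and the values of Esr2 rested on a few reads.

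**Figure D1:**
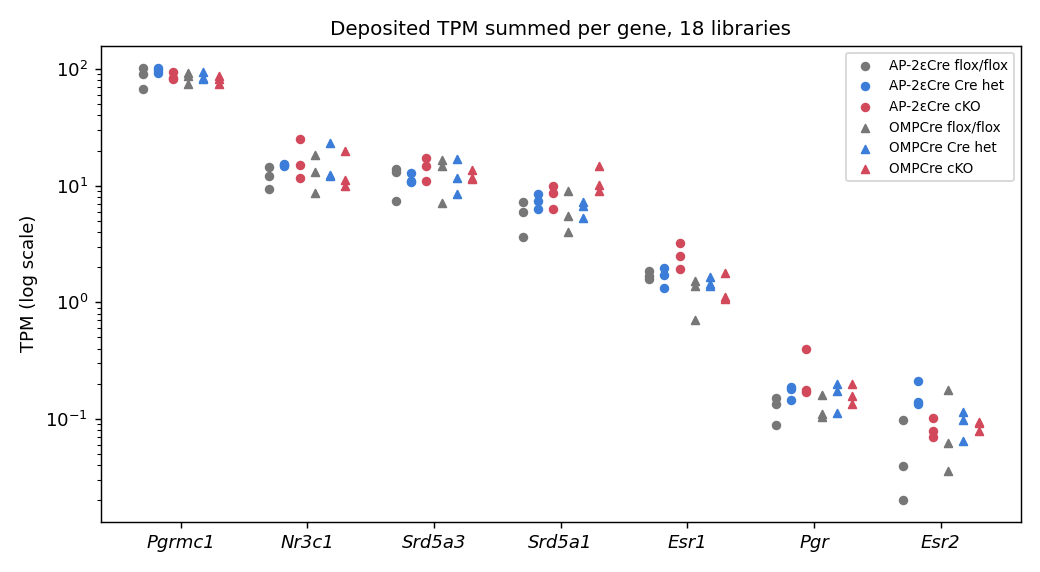
Level of each of the 7 genes in each of the 18 libraries (circles, AP-2εCre line; triangles, OMPCre line; grey, Smad4 flox/flox; blue, Cre heterozygotes; red, cKO), in TPM on a log axis. Pgrmc1 lies highest in every library, and Pgr and Esr2 lie lowest, with means over the controls of 0.145 and 0.0994 TPM.

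Within a gene, levels are compared between libraries as CPM, which are estimated reads per 1e+06 summed over the transcripts of a gene and scaled by the trimmed mean of M-values (TMM) over the 18 libraries. Total counts ran from 43385516 to 134042284, with a median of 63096714. The targeted gene Smad4, counted over its whole length in the whole organ, was at 33.8 to 66.7 CPM in the cKO and 39.5 to 80.8 CPM in the controls of the AP-2εCre line, which overlap, and at 54.6 to 62.4 against 64.9 to 83.8 CPM in the OMPCre line, which do not. Omp was at 224 to 550 CPM in every library and Tfap2e, which encodes AP-2ε, at 5.42 to 19.8 CPM. In 1 library the Y-linked genes went against the label. The flox/flox replicate 3 of the AP-2εCre line is labelled female but had 2001 reads of Ddx3y and 1667 of Eif2s3y, against at most 24 and 25 in any other library. Log2 fold changes of the 7 genes in the AP-2εCre line are therefore given with and without it.

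Sequences upstream of the transcription start are shown for the 2 reductases and for Esr1, since Srd5a1 is the gene the set was built on and Esr1 was the only one of the 6 genes searched with the rare palindromic SMAD element GTCTAGAC. Nr3c1 was not among the genes searched. The 250 bases before the start are from RefSeq on build GRCm38.p6, in the direction of transcription, with SMAD boxes (CAGAC, or GTCTG on the other strand) and the palindrome, which does not contain a SMAD box, in capitals. Srd5a1 is on chr13:69611464-69611713, minus strand; Srd5a3 on chr5:76140023-76140272, plus strand; and Esr1 on chr10:4611739-4611988, plus strand, directly before the start of its main transcript Esr1-204.
Srd5a1: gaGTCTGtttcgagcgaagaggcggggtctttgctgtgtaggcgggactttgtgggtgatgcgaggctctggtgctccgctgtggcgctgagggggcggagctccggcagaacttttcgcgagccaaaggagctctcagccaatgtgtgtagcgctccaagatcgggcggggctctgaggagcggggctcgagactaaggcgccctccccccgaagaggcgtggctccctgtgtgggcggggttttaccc
Srd5a3: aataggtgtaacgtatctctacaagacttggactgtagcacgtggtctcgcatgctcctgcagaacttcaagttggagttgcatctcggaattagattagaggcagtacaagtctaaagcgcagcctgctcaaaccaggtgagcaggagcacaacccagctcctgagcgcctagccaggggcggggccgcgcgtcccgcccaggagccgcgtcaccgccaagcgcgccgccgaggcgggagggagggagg
Esr1: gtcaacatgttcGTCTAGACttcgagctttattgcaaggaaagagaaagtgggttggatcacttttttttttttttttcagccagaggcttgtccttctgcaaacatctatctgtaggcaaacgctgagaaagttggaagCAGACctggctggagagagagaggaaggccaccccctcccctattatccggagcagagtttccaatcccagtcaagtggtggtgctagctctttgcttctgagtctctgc

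The Srd5a1 window held 1 SMAD box, 248 bases before the start, and 3 GC boxes (GGGCGG on either strand), and the Srd5a3 window held no SMAD box and 2 GC boxes. In the Esr1 window shown, the palindrome began 238 bases and the SMAD box 110 bases before the start. The window of another Esr1 start, chr10:4709908-4710157, held 2 SMAD boxes, 145 and 80 bases before that start, and no palindrome. A SMAD box stood in 42.2% of the 32851 mouse promoters searched in the same way, a GC box in 32.7% and the palindrome in 0.167%. The Pgr window held 1 SMAD box, and that of Esr2 and Pgrmc1 none. No window of the 6 genes searched held the estrogen motif AGGTCA (14% of promoters), and 1, that of Pgrmc1, held the glucocorticoid motif AGAACA (16.1%). These matches describe letters in short windows and say nothing of binding.

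Srd5a1 (ENSMUSG00000021594.11, chromosome 13, 69573449 to 69611442, minus strand of GRCm38) was higher in the cKO than in every control of its line. In the AP-2εCre line it was at 18.3, 17.8 and 18.7 CPM in the cKO replicates 1 to 3, at 12.6, 15.9 and 15.2 in the heterozygotes and at 12.5, 14.6 and 12.5 in the flox/flox controls. The lowest cKO library stood above the highest control, and the 3 cKO libraries lay closer together (SD 0.443 CPM) than the 6 controls (SD 1.52 CPM). The OMPCre line had 22, 22.9 and 25.1 CPM in the cKO, 14.5, 14 and 11.6 in the heterozygotes and 12, 10.5 and 17 in the flox/flox controls. The OMPCre cKO were thus the highest of the 6 groups, and none of their libraries overlapped those of the AP-2εCre cKO. The means of the 4 control groups ran from 13.2 to 14.6 CPM and each overlapped its neighbour in the order.

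The size of the difference was a log2 fold change of 0.40 (SE 0.10) in the AP-2εCre line and 0.81 (SE 0.14) in the OMPCre line, or 1.32-fold and 1.76-fold. Since Srd5a1 was chosen on these contrasts, the values describe it and no p is given. Of all genes tested, 2.29% had cKO libraries above all 6 controls in the AP-2εCre line and 1.41% in the OMPCre line, and nothing is read from Srd5a1 being among them. Leaving out the AP-2εCre flox/flox replicate 3 gave 0.37, and over all libraries of that line left out singly the range was 0.37 to 0.44. For the OMPCre line it was 0.75 to 0.89. Against flox/flox controls alone the log2 fold changes were 0.46 and 0.82, and against heterozygotes alone 0.33 and 0.80. Library names came in 2 forms, a letter with a number and a line abbreviation with a number, which may mark separate series. Within the 1st form the cKO mean was 1.31 times the control mean in the AP-2εCre line and 1.76 times in the OMPCre line, and within the other form 1.32 and 1.75 times. The other form holds only 1 cKO library and 2 controls in each line.

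The transcripts of Srd5a1 did not share the difference equally in the AP-2εCre line. Srd5a1-202, which encodes the protein, held 91.9% of the reads of the gene over all libraries, and Srd5a1-203, a transcript of 742 bases annotated without a coding sequence, held 7.84%. Srd5a1-202 was at 18.3, 17.8 and 16.8 CPM in the AP-2εCre cKO and at 10.5 to 13.8 CPM in the 6 controls, with means that differed 1.42-fold. Libraries of the OMPCre line had 20.1, 20.4 and 22.3 CPM in the cKO and 8.87 to 16 CPM in the controls, a ratio of 1.74. Neither line showed an overlap for this transcript. Srd5a1-203 was at 0, 0 and 1.89 CPM in the AP-2εCre cKO and at 0 to 2.13 CPM in the controls, and at 1.84, 2.43 and 2.49 CPM in the OMPCre cKO against 0 to 2.11 CPM.

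Because Srd5a1-203 is short, its few reads held 29.5% of the TPM of the gene, and measures that divide by length gave it more weight. Summed TPM were 8.65, 6.28 and 10 in the AP-2εCre cKO and 3.63 to 8.44 in the controls, which overlap, and 9, 10.1 and 14.7 in the OMPCre cKO against 4 to 8.92, which do not. The ratio of mean TPM was 1.28 in the AP-2εCre line and 1.8 in the OMPCre line. Deposited TPM are not rescaled for composition, and the median ratio over all genes tested was 1.21 in the AP-2εCre line (log2 0.28) and 0.964 in the OMPCre line (log2 -0.05), against 0.00 on the log2 scale for CPM. Relative to that median, Srd5a1 in TPM was 1.06 times higher in the AP-2εCre cKO, where 37.5% of genes had a larger ratio, and 1.87 times higher in the OMPCre cKO, where 1.98% did. Of the other genes in the AP-2εCre line, relative TPM ratios were 1.06 for Nr3c1, 1.02 for Srd5a3, 1.25 for Esr1, 1.39 for Pgr, 0.779 for Pgrmc1 and 0.643 for Esr2. With counts rescaled from TPM and average transcript length, the log2 fold change of Srd5a1 was 0.09 in the AP-2εCre line and 0.87 in the OMPCre line. The assignment of reads between overlapping transcripts is an estimate. In the AP-2εCre line the difference of Srd5a1 was thus present in counts of the gene, on which it was chosen, and of Srd5a1-202, which holds most of those counts. For the whole gene it was near the median gene on measures that divide by length.

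**Figure D2:**
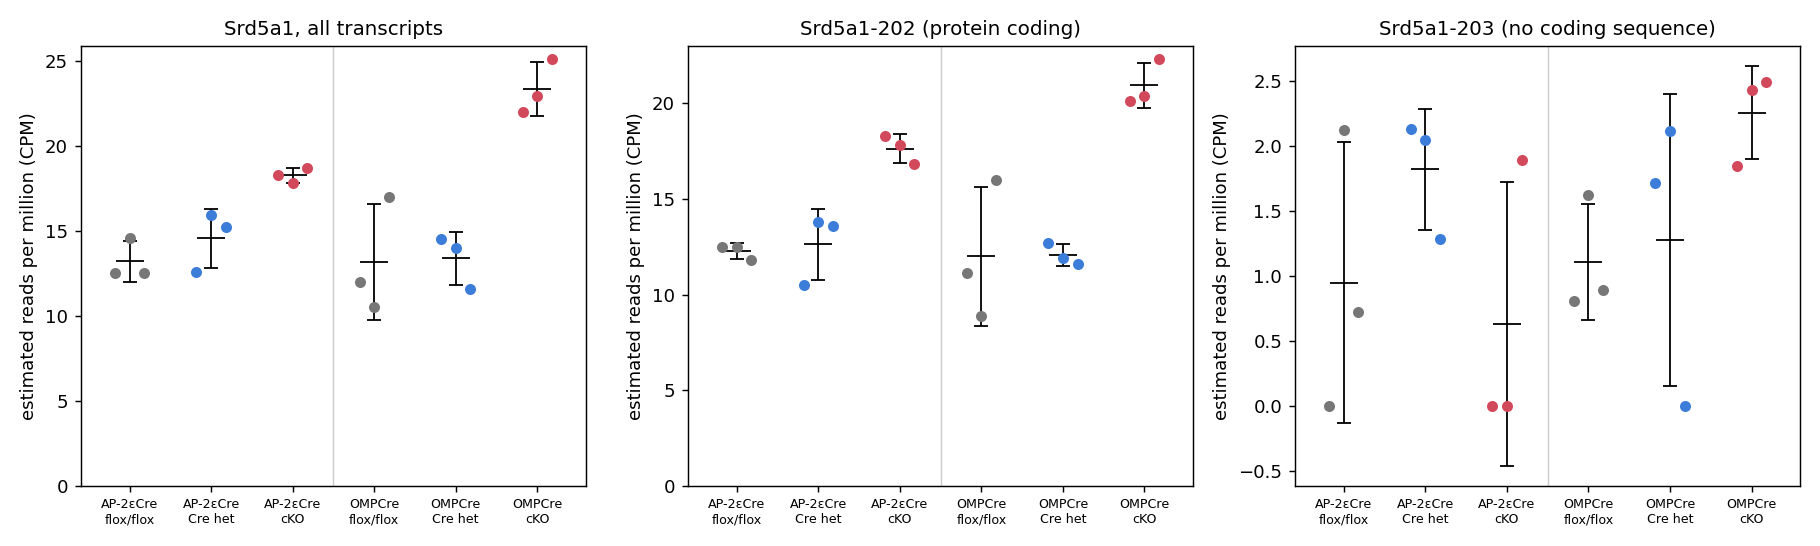
CPM of Srd5a1 in each library of the 6 groups, for the whole gene, for Srd5a1-202 and for Srd5a1-203 (points, libraries; horizontal bars, group means; error bars, SD; each panel has its own linear axis). The cKO libraries lie above all controls of their line for the gene and for Srd5a1-202, while Srd5a1-203 is at 0 CPM in 2 of 3 AP-2εCre cKO libraries.

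The locus of Srd5a1 overlaps Nsun2, an RNA methyltransferase gene on the opposite strand (chromosome 13, 69533746 to 69635780). The libraries keep the strand, but how the counting used it is not given in the sources used here. Nsun2 was at 52.5 to 58.9 CPM in the AP-2εCre cKO and 50.1 to 59.4 CPM in the controls, and at 52.2 to 53.9 against 48.8 to 60.9 CPM in the OMPCre line. Its log2 fold changes were 0.06 (SE 0.08) and -0.09 (SE 0.07). The other nearest genes tested, Tent4a and Ube2ql1 on either side and Med10 beyond, had log2 fold changes of 0.05 and 0.01, 0.33 and 0.15, and -0.01 and -0.15 in the AP-2εCre and OMPCre lines, and none of the 4 neighbours passed the test.

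In contrasts that played no part in its choice, Srd5a1 did not pass the test. Heterozygotes against flox/flox controls gave a log2 fold change of 0.14 (95% CI -0.12 to 0.40, edgeR adjusted p = 1; 0.11 without flox/flox replicate 3) in the AP-2εCre line and 0.01 (95% CI -0.39 to 0.41, edgeR adjusted p = 0.999) in the OMPCre line. Controls of the AP-2εCre line against controls of the OMPCre line gave 0.06 (95% CI -0.20 to 0.33, edgeR adjusted p = 0.958), and 0.09 without that replicate. The difference in size of the cKO effects between the lines was -0.42 (SE 0.18) on the log2 scale, AP-2εCre minus OMPCre, and is given without a test for the same reason as above. With length-scaled TPM counts it was -0.78, and over single libraries left out it ran from -0.50 to -0.36.

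Among the genes whose profile over the 18 libraries was most like that of Srd5a1, of 15837 compared, were Slc14a2 (Pearson r = 0.924 on log2(CPM + 1)), Tenm2 (0.889), Gcnt2 (0.862) and Mapre2 (0.860). Slc14a2, a urea transporter gene, had group means of 11.2, 14.7 and 23.2 CPM in flox/flox, heterozygotes and cKO of the AP-2εCre line and 11.2, 12.9 and 34.2 CPM in those of the OMPCre line. Tenm2, which encodes a teneurin adhesion protein, had 77.3, 72 and 93.3 CPM and 74.3, 76.1 and 119 CPM. These 4 also had their highest group mean in the OMPCre cKO, which the choice by likeness to Srd5a1 favours. The libraries share preparation and cell composition, so the values describe likeness only.

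None of the 6 other genes passed the test in either comparison of cKO with controls. The shares of all genes past an edgeR adjusted p under 0.05 were 0.0378% of 18495 for the AP-2εCre line and 0% of 18623 for the OMPCre line. At an unadjusted p under 0.05, Pgrmc1 was the 1 gene of these 6 in the AP-2εCre line, where 10.2% of all genes passed, and none of the 6 did in the OMPCre line, where 3.95% passed. With DESeq2, none of the 6 passed at an adjusted p under 0.05 either.

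**Figure D3:**
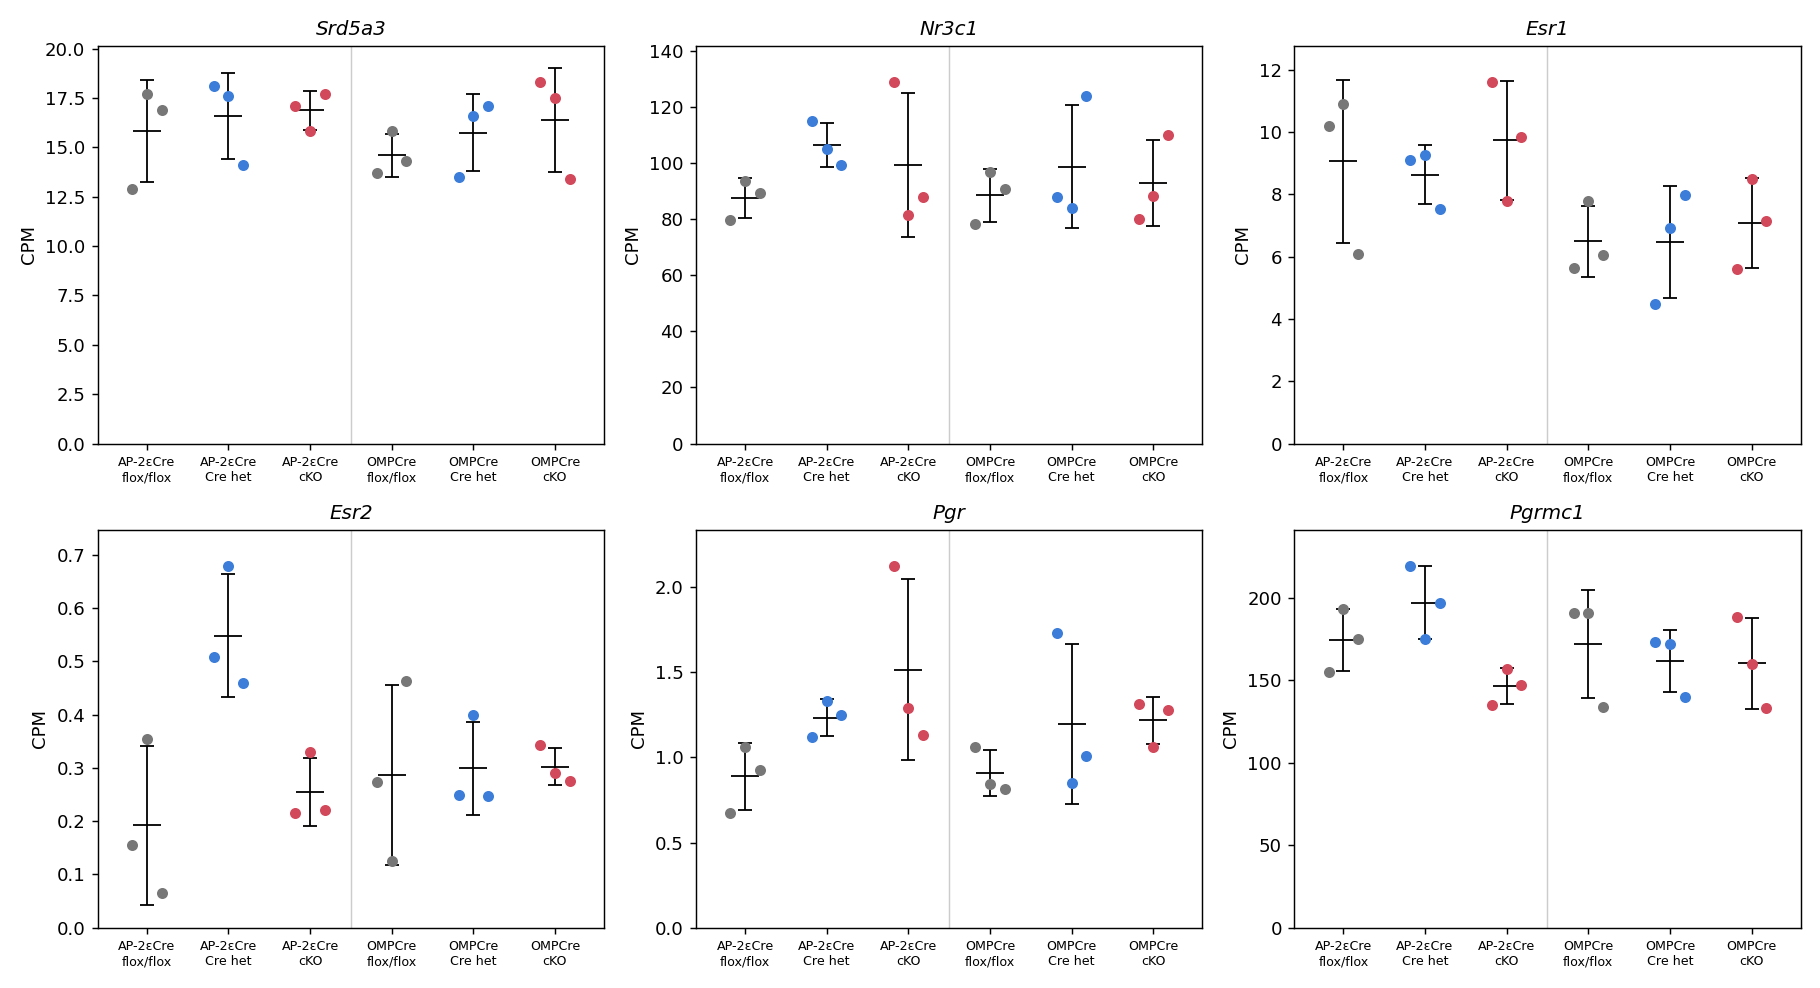
CPM of the 6 other genes in each library of the 6 groups (points, libraries; horizontal bars, group means; error bars, SD; axes start at 0 and differ between panels). Libraries of cKO and controls overlap for all 6 genes, and the Pgrmc1 values of the AP-2εCre cKO, 135 to 157 CPM, lie at the lower edge of their controls.

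Srd5a3 (chromosome 5, 76140271 to 76155504) did not follow Srd5a1. In the AP-2εCre line it was at 17.1, 15.8 and 17.7 CPM in the cKO, 18.1, 17.6 and 14.1 in the heterozygotes and 12.9, 17.7 and 16.9 in the flox/flox controls. Values in the OMPCre line were 18.3, 17.5 and 13.4 CPM in the cKO, 13.5, 16.6 and 17.1 in the heterozygotes and 13.7, 15.8 and 14.3 in the flox/flox controls. All groups overlapped, and the group means spanned only 14.6 to 16.9 CPM. Between cKO and controls the log2 fold change was 0.05 (95% CI -0.21 to 0.32, edgeR adjusted p = 0.932; 0.07 without flox/flox replicate 3) in the AP-2εCre line and 0.12 (95% CI -0.16 to 0.39, edgeR adjusted p = 1) in the OMPCre line. The OMPCre value was 0.02 without cKO replicate 1, 0.07 without cKO replicate 2 and 0.24 without cKO replicate 3. Within the forms of library name the cKO mean was 1.2 times the control mean for the letter form and 0.855 times for the line form, which holds 1 cKO library, and in the AP-2εCre line 1.01 and 1.1 times. Its main transcripts, Srd5a3-202 with 55.2% of the reads and Srd5a3-201 with 39%, had cKO means of 1.02 times the control means for both in the AP-2εCre line, and of 1.07 and 1.15 times in the OMPCre line. Extl2 (r = 0.791), a glycosyltransferase gene, and Ncbp2 (r = 0.761), a gene of the cap-binding complex, had the profiles most like that of Srd5a3.

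Nr3c1 (chromosome 18, 39410545 to 39519421) was the most strongly expressed nuclear receptor gene of the set. In the AP-2εCre line it was at 129, 81.4 and 88.1 CPM in the cKO, 115, 105 and 99.5 in the heterozygotes and 79.6, 93.8 and 89.5 in the flox/flox controls. OMPCre libraries had Nr3c1 at 80.3, 88.4 and 110 CPM in the cKO, 88.1, 84.1 and 124 in the heterozygotes and 78.3, 96.8 and 90.9 in the flox/flox controls. The spread within groups was as wide as that between them, and the cKO differed from controls by a log2 fold change of 0.03 (95% CI -0.31 to 0.38, edgeR adjusted p = 0.969) in the AP-2εCre line and -0.01 (95% CI -0.34 to 0.32, edgeR adjusted p = 1) in the OMPCre line. The AP-2εCre cKO replicate 1 carried the highest value of Nr3c1 in the whole set, and without it the value for that line was -0.20 (edgeR adjusted p = 0.648). Without flox/flox replicate 3 it was 0.01. That cKO library is the only one of its group named by the line, and within the letter and line forms of name the cKO mean was 0.862 and 1.36 times the control mean in the AP-2εCre line, and 0.971 and 1.02 times in the OMPCre line. The genes with the profile most like Nr3c1 were Spred1 (r = 0.965), an inhibitor of Ras signaling, and 1190002N15Rik (r = 0.885).

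The same library also held the highest values of Esr1 and Pgr. Esr1 (chromosome 10, 4611593 to 5005614) was at 11.6, 7.77 and 9.83 CPM in the AP-2εCre cKO, 9.11, 9.25 and 7.54 in the heterozygotes and 10.2, 10.9 and 6.07 in the flox/flox controls. The groups overlapped, with a log2 fold change of 0.14 (95% CI -0.29 to 0.56, edgeR adjusted p = 0.879) that became -0.01 without cKO replicate 1 and 0.05 without flox/flox replicate 3. For the OMPCre line, Esr1 was at 5.61, 8.5 and 7.15 CPM in the cKO, 4.49, 6.93 and 7.99 in the heterozygotes and 5.64, 7.79 and 6.04 in the flox/flox controls, with a log2 fold change of 0.13 (95% CI -0.33 to 0.58, edgeR adjusted p = 1). Within the letter and line forms of name the cKO mean of Esr1 was 0.892 and 1.7 times the control mean in the AP-2εCre line, opposite in direction, and 1.14 and 1.02 times in the OMPCre line. Esr1-204 held 88.8% of the reads and had the same mean in AP-2εCre cKO and controls, 8.11 and 8.09 CPM. Esr1-201, which starts close to Esr1-204, had reads in 2 of the 3 AP-2εCre cKO libraries (50.975 and 137.97 estimated reads), in 1 of the 6 controls of that line (6.949) and in none of the OMPCre line.

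Among controls, Esr1 had the largest log2 fold change of the 7 genes between the lines and was the only one with an unadjusted p under 0.05. The 6 controls of the AP-2εCre line had a lowest, median and highest value of 6.07, 9.18 and 10.9 CPM, and those of the OMPCre line of 4.49, 6.49 and 7.99 CPM. In the AP-2εCre line 4 of 6 controls stood above every OMPCre control. The log2 fold change was 0.45 (95% CI 0.07 to 0.83, edgeR p = 0.0252, adjusted p = 0.706; two-sided exact permutation p = 0.03), and 6.5% of all genes had an unadjusted p under 0.05. Without the AP-2εCre flox/flox replicate 3 it was 0.54 (edgeR adjusted p = 0.48). Line, litter and preparation cannot be told apart in this comparison, and 0.0972% of the 18522 genes tested passed after adjustment. The genes with the profile most like Esr1 were Slc25a24 (r = 0.875), a mitochondrial carrier gene, and Ecm2 (r = 0.868), a gene for an extracellular matrix protein.

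Pgr (chromosome 9, 8899833 to 8968611), itself a classical target of estrogen receptor, was expressed at a low level. It was at 2.12, 1.29 and 1.13 CPM in the AP-2εCre cKO, 1.12, 1.33 and 1.25 in the heterozygotes and 0.676, 1.06 and 0.928 in the flox/flox controls. The cKO replicate 1 stood above all controls and the other cKO libraries stood among them. Pgr had a log2 fold change of 0.51 (95% CI -0.19 to 1.20, edgeR adjusted p = 0.639), which was 0.18 (edgeR adjusted p = 0.893) without cKO replicate 1 and 0.47 without flox/flox replicate 3. For the OMPCre line, Pgr was at 1.31, 1.06 and 1.28 CPM in the cKO, 1.73, 0.848 and 1.01 in the heterozygotes and 1.06, 0.842 and 0.816 in the flox/flox controls, and the log2 fold change of 0.21 (95% CI -0.49 to 0.91, edgeR adjusted p = 1; 0.41 without heterozygote replicate 1) was not larger than the spread. In both lines each of the 3 cKO libraries was above the median of the 6 controls. The size depended on the kind of control, with 0.75 and 0.42 in the AP-2εCre and OMPCre lines against flox/flox controls alone and 0.30 and 0.03 against heterozygotes alone. Within the letter and line forms of name the ratios of means were 1.16 and 1.94 in the AP-2εCre line and 1.06 and 1.41 in the OMPCre line. Pgr-204 held 88.6% of the reads. Snx29 (r = 0.769), a sorting nexin gene, and Ndst3 (r = 0.750), a heparan sulfate enzyme gene, had the profiles most like that of Pgr.

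Esr2 (chromosome 12, 76120419 to 76177259) was the lowest of the genes, and its cKO libraries did not stand apart in either line. It was at 0.216, 0.329 and 0.22 CPM in the AP-2εCre cKO, 0.507, 0.678 and 0.459 in the heterozygotes and 0.156, 0.355 and 0.0648 in the flox/flox controls. OMPCre libraries had it at 0.342, 0.29 and 0.275 CPM in the cKO, 0.25, 0.399 and 0.248 in the heterozygotes and 0.273, 0.126 and 0.463 in the flox/flox controls. For cKO against controls the log2 fold changes were -0.54 (95% CI -2.02 to 0.94, edgeR adjusted p = 0.857) and 0.05 (95% CI -1.04 to 1.13, edgeR adjusted p = 1), intervals that allow large changes both ways. Without flox/flox replicate 3 the AP-2εCre value was -0.75. Against flox/flox controls alone it was 0.41 and against heterozygotes alone -1.08. Within the letter and line forms of name the ratios of means were 0.648 and 0.826 in the AP-2εCre line and 1.21 and 0.773 in the OMPCre line.

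The direction of Esr2 in that line depended on the controls because the AP-2εCre heterozygotes were the highest group. They had 26 to 44 estimated reads of Esr2 and the flox/flox controls 3 to 16, with no overlap between the groups. Heterozygotes differed from flox/flox controls by a log2 fold change of 1.51 (SE 0.67, edgeR p = 0.049, adjusted p = 0.912; two-sided exact permutation p = 0.1, the smallest this design allows). Without the flox/flox replicate 3, which held the lowest value, it was 1.09 (edgeR adjusted p = 0.881).

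Pgr and Nr3c1 shared that order in the AP-2εCre line. Both were also higher in every heterozygote than in every flox/flox control, so that 3 of the 7 genes did not overlap in this direction, where 4.96% of all genes did not. For Nr3c1 the log2 fold change was 0.28 (95% CI -0.09 to 0.65, edgeR adjusted p = 0.978) and for Pgr 0.47 (95% CI -0.35 to 1.28, edgeR adjusted p = 1), and without flox/flox replicate 3 these were 0.30 and 0.50. For the other genes the heterozygotes differed by 0.07 (Srd5a3), -0.07 (Esr1) and 0.18 (Pgrmc1), and by 0.12, -0.29 and 0.18 without that library. No gene of the 7 passed the test (0.0487% of 18495 genes did), and Esr2 alone had an unadjusted p under 0.05 (5.47% of genes did). Between heterozygotes and flox/flox controls of the OMPCre line no gene of the 7 passed the test (0.0752% of 18623 genes did), no gene of the 7 had an unadjusted p under 0.05 (5.84% did), and the groups overlapped for all 7 (11.5% of genes did not overlap). Heterozygotes differ from these controls in the Cre allele and, if the latter carry floxed Smad4 alleles, in those too, and these cannot be told apart.

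Pgrmc1 (chromosome X, 36598206 to 36606079) had the lowest values of its line in the AP-2εCre cKO. It was at 135, 157 and 147 CPM in the cKO, 219, 175 and 197 in the heterozygotes and 155, 193 and 175 in the flox/flox controls. The cKO libraries were below the median of the controls in 3 of 3, and 1 of them, at 157 CPM, overlapped the lowest control. The log2 fold change was -0.34 (95% CI -0.59 to -0.10, edgeR p = 0.0104, adjusted p = 0.345; two-sided exact permutation p = 0.036), where 6.04% of all genes were lower at an unadjusted p under 0.05. It was -0.36 without the flox/flox replicate 3 (edgeR adjusted p = 0.439), and DESeq2 gave -0.35 (adjusted p = 0.0839). Within the 2 forms of library name the cKO mean was 0.819 and 0.726 times the control mean. In deposited TPM the ratio was 0.944 (cKO 82.4 to 94.8 TPM, within the controls at 66.8 to 103 TPM), or 0.779 relative to the median gene, and length-scaled TPM counts gave a log2 fold change of -0.35 (edgeR adjusted p = 0.519). Pgrmc1 did not pass the test over all genes by either tool.

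Among OMPCre libraries, Pgrmc1 values divided by the form of the library name. It was at 188, 160 and 133 CPM in the cKO, 173, 172 and 140 in the heterozygotes and 191, 191 and 134 in the flox/flox controls. The library numbered 3 in each of these groups, the one named by the line, was the lowest of its group, so that these 3 libraries ran from 133 to 140 CPM and the other 6 from 160 to 191 CPM. The log2 fold change between cKO and controls was -0.06 (95% CI -0.39 to 0.28, edgeR adjusted p = 1). Within the forms of name the cKO mean was 0.957 and 0.972 times the control mean.

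Markers of glands were lower beside Pgrmc1 in the AP-2εCre cKO. Over 8 gland genes the summed level was 76600 to 117000 CPM in the cKO and 126000 to 251000 CPM in the controls (150000 to 251000 CPM without flox/flox replicate 3), without overlap. All 8 had a lower mean in the cKO, 5 of 8 with an unadjusted p under 0.05, where 6.04% of all genes were lower, and none after adjustment, where 0.0378% of all genes passed. Obp1a, an odorant-binding protein gene, was at 17.4 to 73.2 CPM in the cKO against 271 to 9220 CPM in the controls, and the lipocalin gene Lcn4 at 3740 to 5070 against 8200 to 16400 CPM. Over 6 sustentacular genes the summed level was 918 to 1090 CPM in the cKO and 1070 to 2550 CPM in the controls, which overlap. Their median log2 fold change was -0.08, and 1 of 6 had an unadjusted p under 0.05, the cytochrome P450 gene Cyp2a5 at -1.37 (SE 0.44, edgeR adjusted p = 0.346), while Krt8, a keratin gene, was at 264 to 343 CPM in the cKO and 242 to 320 CPM in the controls. For OMPCre libraries the gland sum was 129000 to 164000 CPM in the cKO and 90000 to 234000 CPM in the controls, and the sustentacular sum 1020 to 1470 against 790 to 1510 CPM. None of the marker genes was at 0 throughout. The part of these cell types in the values of Pgrmc1, and in those of Srd5a1 in the same libraries, was not tested.

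The 2 genes with the profile closest to Pgrmc1 were Aldh1a1 and Cyp2f2. Aldh1a1, an aldehyde dehydrogenase gene, had r = 0.956 and Cyp2f2, a cytochrome P450 gene, r = 0.953 over the 18 libraries. Aldh1a1 had group means of 291, 406 and 142 CPM in flox/flox, heterozygotes and cKO of the AP-2εCre line, the order seen for Pgrmc1 with 174, 197 and 146 CPM. Cyp2f2 had 1350, 1760 and 818 CPM. The same groups of the OMPCre line had 278, 208 and 215 CPM of Aldh1a1 and 1280, 971 and 1000 CPM of Cyp2f2.

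For the markers of other cell types given next, the summed levels overlapped between cKO and controls of the AP-2εCre line. Over 8 genes of immature neurons and progenitors, the sum was 426 to 491 CPM in the cKO and 291 to 435 CPM in the controls. All 8 had a higher mean, with a median log2 fold change of 0.36 and 3 of 8 at an unadjusted p under 0.05 (10.2% of all genes). Over 6 genes of mature VSNs the sum was 1330 to 1500 against 1040 to 1370 CPM, with 4 of 6 higher. The sum joined genes with opposite directions, since Gnai2, a G protein gene of apical VSNs, was at 418 to 477 against 318 to 410 CPM and Ano1, a chloride channel gene, at 95.2 to 127 against 132 to 183 CPM. All 5 immune markers had a higher mean in the cKO, with a median of 0.25 and 2 of 5 at an unadjusted p under 0.05, and sums of 393 to 1010 against 433 to 729 CPM. None of these genes passed after adjustment. The OMPCre sums were 293 to 395 against 342 to 399 CPM for immature neurons and progenitors, and 1170 to 1180 against 1090 to 1390 CPM for mature VSNs, the latter with Omp, whose locus carries Cre in the heterozygotes and cKO. Of the 8 immature and progenitor genes there, 4 were higher and 4 lower. The proliferation genes Top2a (-0.52, SE 0.14) and Mki67 (-0.51, SE 0.22) were lower at an unadjusted edgeR p under 0.05 (3.95% of all genes), and neither passed after adjustment. Stromal and cartilage markers (7 genes) summed to 29200 to 35700 CPM in the AP-2εCre cKO and 15100 to 35100 CPM in the controls (27200 to 35100 CPM without flox/flox replicate 3), and endothelial and mural markers (6 genes) to 1890 to 2790 against 1080 to 2040 CPM. The part of these cell types in the values of Srd5a1 and of the receptor genes was not tested.

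A direct test of whether the cKO effect differed between the lines was passed by none of the 6 genes other than Srd5a1. The differences in log2 fold change, AP-2εCre minus OMPCre, were -0.29 for Pgrmc1 (95% CI -0.69 to 0.11, edgeR adjusted p = 1), 0.29 for Pgr (95% CI -0.61 to 1.19), -0.58 for Esr2 (95% CI -2.32 to 1.15), -0.06 for Srd5a3 (95% CI -0.43 to 0.30), 0.04 for Nr3c1 (95% CI -0.44 to 0.52) and 0.00 for Esr1 (95% CI -0.61 to 0.62). Over all 19465 genes 0% passed after adjustment by edgeR and 4.91% at an unadjusted p under 0.05, and none of the 6 genes was among the latter or passed with DESeq2. Without the AP-2εCre flox/flox replicate 3 the differences were -0.31 for Pgrmc1, 0.26 for Pgr, -0.80 for Esr2, -0.05 for Srd5a3, 0.02 for Nr3c1 and -0.08 for Esr1.

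**Figure D4:**
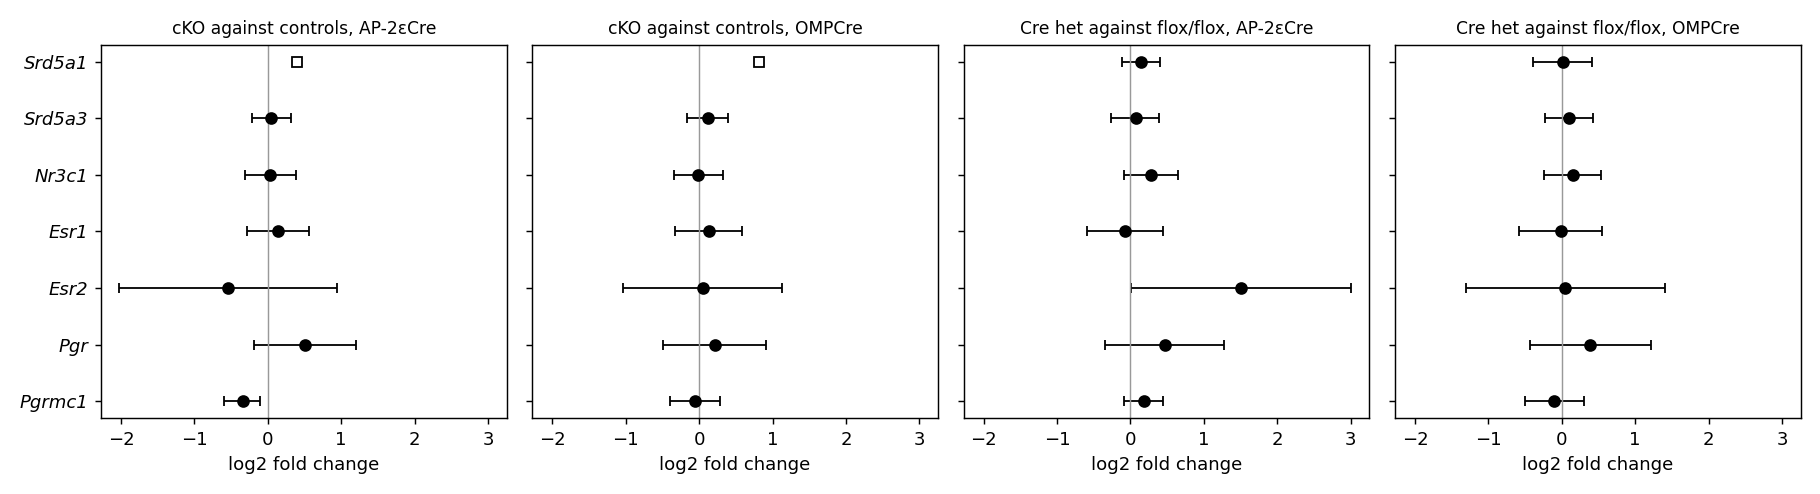
Log2 fold change of each of the 7 genes in the cKO comparisons and the comparisons of heterozygotes with flox/flox controls (circles, estimates of the edgeR fit; bars, 95% CI; open squares, Srd5a1 in the contrasts it was chosen on, without interval). Srd5a1 is at 0.40 and 0.81 in the cKO comparisons, and the interval of Pgrmc1 in the AP-2εCre line runs from -0.59 to -0.10.

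Among the other reductases, Srd5a2, the type 2 enzyme, had 3.18 CPM on average and Tecr, an enoyl-CoA reductase of the same superfamily, 173 CPM. Srd5a2 had a log2 fold change of 0.53 (SE 0.26, edgeR adjusted p = 0.525) in the AP-2εCre line and -0.65 (SE 0.36, edgeR adjusted p = 1) in the OMPCre line, with overlap in both; without OMPCre cKO replicate 3 the latter was -1.07. Tecr had 0.03 in both lines. Tecrl had at most 5 reads in a library and was not tested.

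Of 29 genes of steroid synthesis and metabolism in the files, 22 were tested in the AP-2εCre line and 21 in the OMPCre line, and none passed in either direction. Their median log2 fold changes were 0.00 and 0.05, against 0.003 and -0.005 over all genes tested. The genes with the largest changes were Akr1c18, which encodes a progesterone-inactivating hydroxysteroid dehydrogenase, with -1.71 (SE 0.64, edgeR adjusted p = 0.403) in the AP-2εCre line, and -2.67 without cKO replicate 2. Sult2b1, a steroid sulfotransferase gene, had -0.51 (SE 0.34) there, with -0.85 to -0.28 over single libraries left out (the former without cKO replicate 2, the latter without cKO replicate 1). Its value of -1.16 (SE 1.06) in the OMPCre line rested on flox/flox replicate 3 and was 0.28 without it. Hsd17b2, whose product inactivates estradiol and testosterone, had 0.51 (SE 0.23, edgeR adjusted p = 1) in the OMPCre line and 0.46 (SE 0.18, edgeR adjusted p = 0.409) in the AP-2εCre line. Its heterozygotes differed from flox/flox controls by -0.49 (SE 0.15) in the AP-2εCre line and -0.24 (SE 0.28) in the OMPCre line. Cyp19a1, the aromatase gene, had at most 4 reads in any library, Cyp17a1 at most 49, and Hsd3b1 and Hsd17b3 none. Other Hsd3b and Hsd17b genes had reads. Hsd3b6 had at most 32 and Hsd17b1 at most 37. Hsd3b2 had 433 to 1073 reads, Hsd17b4 3165 to 9521 and Hsd17b12 2445 to 9014. Star, the cholesterol carrier of steroid-producing cells, had 23 to 84 reads, and Cyp11a1, which makes pregnenolone, 2 to 56.

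The 20 genes of polyprenol and dolichol steps, the pathway of Srd5a3, were all tested. None passed in either line, and the medians were -0.06 and 0.02. Alg6 and Alg8, glucosyltransferase genes of the lipid-linked glycan, had the largest changes in the AP-2εCre line, -0.36 (SE 0.14, edgeR adjusted p = 0.405) and -0.32 (SE 0.14, edgeR adjusted p = 0.469). For the OMPCre cKO these were Alg1 with 0.29 (SE 0.14) and Dpm1 with 0.17 (SE 0.15), the latter 0.10 without cKO replicate 1.

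Of 5 other nuclear receptor genes, 4 were tested and none passed. Esrrg, an orphan estrogen-related receptor gene, had -0.32 (SE 0.17) and -0.22 (SE 0.25). Without cKO replicate 1 of the line these were -0.19 and -0.60, and without OMPCre cKO replicate 3 the latter was -0.05. All 9 membrane receptor genes and relatives of Pgrmc1 were tested and none passed, with medians of -0.08 and 0.06. Paqr5 and Paqr9, genes of membrane progestin receptors, had -0.30 (SE 0.28) and 0.52 (SE 0.32) in the AP-2εCre line and -0.57 (SE 0.46) and -0.52 (SE 0.25) in the OMPCre line. For Paqr5 the OMPCre value was -0.16 without flox/flox replicate 3, and the AP-2εCre value was -0.14 without cKO replicate 1 and -0.68 without cKO replicate 2. The OMPCre value of Paqr9 was -0.68 without cKO replicate 2 and -0.35 without cKO replicate 3.

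Neither the partners nor the known targets of the receptors passed the test. The 13 chaperone and coregulator genes had medians of 0.01 and -0.00, with Hsp90aa1, a chaperone of steroid receptors, at -0.24 (SE 0.10, edgeR adjusted p = 0.445) and its cochaperone Ptges3 at -0.17 in the AP-2εCre line. Nrip1, a corepressor gene, had -0.12 (SE 0.11) in the OMPCre line, and -0.05 and -0.23 without cKO replicate 2 or 3. The 14 glucocorticoid receptor targets had medians of 0.00 and 0.11. Among them Errfi1, a feedback inhibitor of EGF receptor, had 0.40 (SE 0.12, edgeR adjusted p = 0.339) in the AP-2εCre line and Zbtb16, a zinc finger gene, 0.56 (SE 0.36), and without cKO replicate 1 these were 0.23 and 0.22. For the OMPCre line Zbtb16 had 0.34 (SE 0.21), with 0.14 without cKO replicate 3, and Dusp1, a MAP kinase phosphatase gene, -0.41 (SE 0.30), with -0.22 without heterozygote replicate 3. The 10 targets of estrogen and progesterone receptors had medians of -0.02 and -0.03, with Tnfsf11, the gene for RANKL, at 0.68 (SE 0.23, edgeR adjusted p = 0.363) in the AP-2εCre line and Greb1, an estrogen-responsive coactivator gene, at 0.23 (SE 0.46) in the OMPCre line, which was -0.65 without cKO replicate 3.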

How the data were processed

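RNA from dissected VNOs was sequenced from strand-preserving libraries. The authors quantified reads with salmon 0.14.0 against a mouse mm10 (GRCm38) assembly that their methods name as coding sequences. Of the transcripts in the files, 115995 were found in GENCODE vM21, each with the length of the full transcript there. The deposited files give an estimated count and TPM for each of 116248 transcripts, of which 116072 were paired with a gene. Estimated counts were summed per gene and rounded, and tested with edgeR 4.0.16 (quasi-likelihood, TMM, filterByExpr, Benjamini-Hochberg over all genes tested, threshold 0.05, two-sided). DESeq2 1.42.0, which the authors used as version 1.22.2, was an alternative. Exact permutation tests used CPM. The edgeR test was checked on simulated data in which 200 genes had a log2 fold change of 1. It recovered 67% of them in the AP-2εCre cKO comparison and 62.5% in the OMPCre one. The share was 55% and 45.5% for the heterozygotes of these lines, 81% between lines and 52% for the difference of cKO effects. Deposited TPM were summed per gene and not tested.

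The cKO were compared with both kinds of control together, heterozygotes with flox/flox controls, and controls between lines. Labels give biological replicates without naming animals or litters, so p-values measure the spread between these samples only. Named genes were the 7 genes, neighbours of Srd5a1, genes of closest profile (at least 1 CPM), and in each list those past the threshold and the 2 with the largest change in each cKO comparison at 1 CPM or more. A few genes named by this rule are not reported here. The genes and lists were chosen with earlier results of these data known. 1 of 19 libraries, whose title and genotype labels disagree, was left out of the groups.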

Additional observations from a re-analysis of the deposited data

Results flagged for a closer look

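Pgr was at 1.73 CPM in the OMPCre heterozygote replicate 1, while the other 5 controls of that line were at 0.816 to 1.06 CPM. The gap to the nearest control was 0.732 of the range, above the critical value of 0.625 for 6 samples in Dixon's test. Chance alone would flag about 1 group in 20.

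Ddx3y was at 43.2 CPM in the flox/flox replicate 3 of the AP-2εCre line, which is labelled female, and at 0 in the other 5 controls of that line.

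The library left out of the groups, titled as an AP-2εCre heterozygote but with the genotype label of a cKO, had Pgr at 1.72 CPM, where the 6 controls of the line were at 0.675 to 1.33 CPM, and Nr3c1 at 119 CPM, where they were at 79.5 to 115 CPM (scaled over all 19 libraries). No group is assigned to it from these values.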

How the results depend on the processing

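Over all alternatives, 732 of the values of the 7 genes kept their direction and, where tested, their side of the threshold. A further 58 turned sign and 2 moved by more than the spread. No call of a tested gene was gained or lost. Srd5a1 had no call in the cKO comparisons or in their difference, so only its size and direction count there. The moved values were Srd5a1 in the AP-2εCre cKO comparison with length-scaled TPM counts (0.09) and the ratio of highest to lowest group mean of Esr1 in TPM (2.13). Values that turned sign were small or, for Esr2, imprecise. With length-scaled TPM counts, Esr1 was -0.01 (OMPCre cKO) and 0.22 (OMPCre heterozygotes), Srd5a3 -0.15 (OMPCre heterozygotes) and -0.03 (between lines), and Nr3c1 -0.01 (between lines). With flox/flox controls only, Esr2 was 0.41 (AP-2εCre cKO) and Nr3c1 0.06 (OMPCre cKO); with heterozygotes only, Nr3c1 was -0.10 (AP-2εCre cKO), and -0.01 with the library of conflicting labels added. The cause of these shifts was not tested.

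Leaving out single libraries, the values that turned sign or rounded to 0.00 ranged as follows. AP-2εCre cKO: Srd5a3 -0.00 to 0.10, Esr1 -0.01 to 0.27 and Nr3c1 -0.20 to 0.16. OMPCre cKO: Esr1 -0.02 to 0.27, Esr2 -0.11 to 0.22, Pgrmc1 -0.19 to 0.06 and Nr3c1 -0.15 to 0.08. AP-2εCre heterozygotes: Srd5a3 -0.07 to 0.17 and Esr1 -0.29 to 0.08. OMPCre heterozygotes: Srd5a1 -0.13 to 0.25, Esr1 -0.19 to 0.19, Esr2 -0.31 to 0.58, Pgrmc1 -0.24 to -0.00 and Nr3c1 -0.04 to 0.25. Between lines: Esr2 -0.01 to 0.47, Pgr -0.08 to 0.17 and Nr3c1 -0.01 to 0.13. Difference of cKO effects: Srd5a3 -0.19 to 0.02, Esr1 -0.14 to 0.16, Pgr -0.02 to 0.46 and Nr3c1 -0.18 to 0.18.

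Counts of all genes past the threshold depended on the tool. In the AP-2εCre cKO comparison 7 genes passed in edgeR, 310 with DESeq2, 24 against flox/flox controls only, 16 with all 18 libraries in 1 fit, 4 with length-scaled TPM counts, 2 with the form of library name as a covariate, 2 at an adjusted p under 0.001 and 0 with the library of conflicting labels added; leaving out a library gave 2 to 8. For the OMPCre cKO the count was 0, with 44 by DESeq2, 2 with at least 10 counts in every library, 1 with the name covariate, 11 against heterozygotes only and 15 with all libraries; leaving out a library gave 0 to 2. For AP-2εCre heterozygotes it was 9, with 127 by DESeq2, 14 with any count, 5 with length-scaled TPM counts, 5 with the name covariate and 3 to 21 with a library left out. For OMPCre heterozygotes it was 14, with 170 by DESeq2, 4 with at least 10 counts in every library and 6 to 19 with a library left out. Between lines it was 18, with 145 by DESeq2, 3 with at least 10 counts in every library and 4 to 25 with a library left out. For the difference of cKO effects it was 0, with 26 by DESeq2 and 0 to 1 with a library left out.

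Same-numbered libraries did not deviate together in the AP-2εCre line (mean correlation -0.0895 over 9 pairs, from -0.338 to 0.206; 2 of 9 libraries closest to their own number) and deviated together in part in the OMPCre line (0.26, from 0.0352 to 0.565, against -0.126 for other pairs; 7 of 9), where number 3 shares a form of name. Not every pair was over 0.1 in either line, so the samples were treated as sharing only a number, which the data of the OMPCre line do not settle. With the replicate number as a block, 2 genes passed for the AP-2εCre cKO, 0 for the OMPCre cKO, 4 for the AP-2εCre heterozygotes and 7 for the OMPCre heterozygotes. The block brought none of the 7 genes other than Srd5a1, which was not tested in the cKO comparisons, past the threshold. Depth limits Esr2, with 3 to 46 reads.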

Other observations

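In the library with conflicting labels, the other 5 genes were within the range of the AP-2εCre controls. Srd5a1 was at 13.6 CPM (controls 12.5 to 15.9 CPM, cKO 17.9 to 18.7 CPM), Srd5a3 at 14.7 CPM, Esr1 at 8.56 CPM, Esr2 at 0.615 CPM and Pgrmc1 at 185 CPM.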
